A study of Mus musculus with 12 samples.

Results

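AP-1 is a transcription factor built from pairs of basic leucine zipper (bZIP) proteins. Proteins of the Fos family bind DNA only together with a partner, usually a Jun protein, whereas Jun proteins can also pair with each other, and Atf3 is a stress-induced bZIP protein that pairs with Jun proteins among others. In neurons, Fos, Fosb and Junb are immediate early genes that synaptic activity and calcium entry switch on within minutes, and Jun and Atf3 are known to be induced in neurons whose axons have been cut. The genes described here are the Fos family genes Fos, Fosb, Fosl1 and Fosl2, the Jun family genes Jun, Junb and Jund, and Atf3, 8 of the 55901 genes in the expression table. They were chosen by name, but with measured values of these libraries known: Fos and Jun were among the genes singled out for their change between Trauma and Control, and Jun also for its change between Trauma+TGF-β1 and Trauma. The values of the 8 genes are therefore given as a description, without a p-value for any of them.

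RNA was sequenced from primary cortical neurons of neonatal C57BL/6J mice kept in culture for 7 days before the scratch, with arabinosylcytosine added early to hold back dividing glia. No collection time was recorded here for Control. Control cultures were not scratched, Trauma cultures were scratched with a needle and collected 24 h later, and Trauma+TGF-β1 cultures received TGF-β1 at 10 ng/mL over the same 24 h after the scratch. Trauma and Trauma+TGF-β1 are together called the scratched groups, and a difference between them is always Trauma+TGF-β1 minus Trauma. Each group held 4 libraries, numbered 1 to 4, with 15052486 to 17381671 reads on genes per library. The labels do not say whether the libraries of a group came from separate cultures or animals, so the SDs measure only the spread between these libraries. Standard errors of fold changes come from a single fit of all libraries. It pools the spread of a gene over all groups and draws it toward that of other genes. Expression is in FPKM (fragments counted on a gene, scaled to its length and to the depth of the library). Levels of different genes are compared on this scale, which does not correct for GC content.

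Summed over 8 neuronal marker genes, expression was 1410 to 1483 FPKM in Control, 1274 to 1361 FPKM in Trauma and 1188 to 1249 FPKM in Trauma+TGF-β1 libraries, the highest of the 6 marker lists in every library. Of these 8, 1 was called higher and 1 lower in Trauma against Control, and 1 higher and 2 lower between the scratched groups. Markers of other cells moved between groups as well. The sum of 8 astrocyte markers was 182 to 210 FPKM in Control, 238 to 298 FPKM in Trauma and 252 to 269 FPKM in Trauma+TGF-β1. Of these 8, 6 were called higher and 0 lower in Trauma against Control, beside 3.30% and 2.70% of all tested genes. Between the scratched groups 1 was called higher and 3 lower, beside 4.40% and 7.71% of all tested genes. The sum of 8 microglial markers was 8.57 to 12.1, 14.3 to 15.2 and 11.1 to 14.8 FPKM in the same order, with 5 of the 8 (P2ry12, Aif1, Tmem119, Itgam and Ptprc) below the filter of 0.5 FPKM. Oligodendrocyte lineage markers summed to 46.3 to 49.1, 57.5 to 64.7 and 56.9 to 63.4 FPKM, with 3 of the 8 (Sox10, Pdgfra and Cspg4) below the filter. Endothelial and mural markers summed to 2.68 to 3.33, 5.66 to 6.86 and 7.92 to 9.93 FPKM. Of these 8, 6 (Cldn5, Pecam1, Kdr, Cdh5, Tek and Rgs5) were below the filter in every group. Fibroblast and meningeal markers summed to 1.30 to 2.21, 1.77 to 3.20 and 2.32 to 3.22 FPKM, with 5, 4 and 3 of the 6 below the filter. The part of these cells in the values of the AP-1 genes was not tested. In RNA from whole cultures, a change in the number of cells of a type and a change in the RNA of each cell cannot be told apart.

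The sequences just before the start sites of Fos, Jun and Junb are shown because these genes reached the highest levels of the group after the scratch. The 150 bases before the RefSeq start were read from the plus strand for Fos (chr12:85473740-85473889) and from the minus strand for Jun (chr4:95052223-95052372) and Junb (chr8:84978749-84978898), in build GRCm38.p6. Capitals mark TGACG, the core of a cyclic AMP response element, TATAAA, TGACATCA, an AP-1-like element, and CCAAT.
Fos: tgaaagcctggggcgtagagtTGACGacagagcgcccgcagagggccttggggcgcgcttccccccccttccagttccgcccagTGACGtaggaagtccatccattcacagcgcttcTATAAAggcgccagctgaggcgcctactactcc
Jun: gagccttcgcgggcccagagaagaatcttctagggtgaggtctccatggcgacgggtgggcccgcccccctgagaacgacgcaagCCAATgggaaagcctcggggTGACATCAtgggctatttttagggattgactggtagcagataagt
Junb: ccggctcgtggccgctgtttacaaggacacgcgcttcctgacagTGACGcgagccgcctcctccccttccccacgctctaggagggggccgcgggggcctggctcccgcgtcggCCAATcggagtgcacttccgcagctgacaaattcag

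Counted back from the start site, Fos held TGACG at bases 129 to 125 and 66 to 62 and TATAAA at bases 33 to 28. Jun held CCAAT at bases 65 to 61 and TGACATCA at bases 45 to 38, and Junb held TGACG at bases 106 to 102 and CCAAT at bases 36 to 32. In windows of 250 bases before the start, Fosb also held TGACG, at bases 60 to 56, and Atf3 held it on the other strand, at bases 7 to 3. Within these 250 bases, the 7 members with such a window held neither TGACTCA, the classical AP-1 element, nor TGACGTCA, the full cyclic AMP response element, nor the CArG box bound by serum response factor. Bases further from the start were not searched, so these promoters may hold such elements there. The RefSeq start is not always that of the expression table. The window of Jund ends at base 70697738, well before the gene start at 70698949, so it does not cover the bases next to that start. Those of Fosl2 and Atf3 lie inside the gene, and that of Fosb overlaps its first bases. Among all 32851 windows of this length, on both strands, TGACTCA was found in 4.46%, TGACGTCA in 1.55%, TGACATCA in 2.93%, the CArG box in 1.47%, TGACG in 17.8% and CCAAT in 33.8%, and TATAAA was found on the strand of the gene in 7.59%. TGACG is part of TGACGTCA, so the windows with TGACGTCA are also among those with TGACG. A match describes letters in the window and says nothing of binding.

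In Control cultures, transcripts of the Jun family outnumbered those of the Fos family. Jun was the most abundant member at 9.01 ± 0.377 FPKM (mean ± SD, n = 4 here and throughout), followed by Junb at 6.37 ± 1.38 FPKM and Fosl2 at 2.13 ± 0.270 FPKM. The libraries of these 3 genes did not overlap. Jund (1.97 ± 0.648 FPKM), Fos (1.38 ± 0.261 FPKM) and Atf3 (1.35 ± 0.201 FPKM) came next, with each neighbour in the order from Fosl2 to Atf3 overlapping the one before it. Fosb was lower than Atf3 in every library, at 0.228 ± 0.0867 FPKM, and Fosl1 overlapped it at 0.139 ± 0.122 FPKM.

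After the scratch, Fos reached the level of Jun and Junb in libraries 3 and 4 of Trauma, and it stayed below both in libraries 1 and 2, where it measured 5.71 and 5.99 FPKM beside 17.1 and 17.3 FPKM of Jun. In Trauma, Jun (18.0 ± 0.959 FPKM), Junb (15.3 ± 5.48 FPKM) and Fos (14.4 ± 9.89 FPKM) stood at the top and overlapped in order, and all of their libraries lay above those of Fosl2 (4.16 ± 0.799 FPKM). Jund, Atf3 and Fosb followed, each overlapping the gene before it, and Fosl1 was lowest. In Trauma+TGF-β1 the order at the top was Jun (15.4 ± 0.952 FPKM), Fos (10.7 ± 6.28 FPKM) and Junb (8.69 ± 2.03 FPKM), again with overlapping neighbours.

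**Figure D1:**
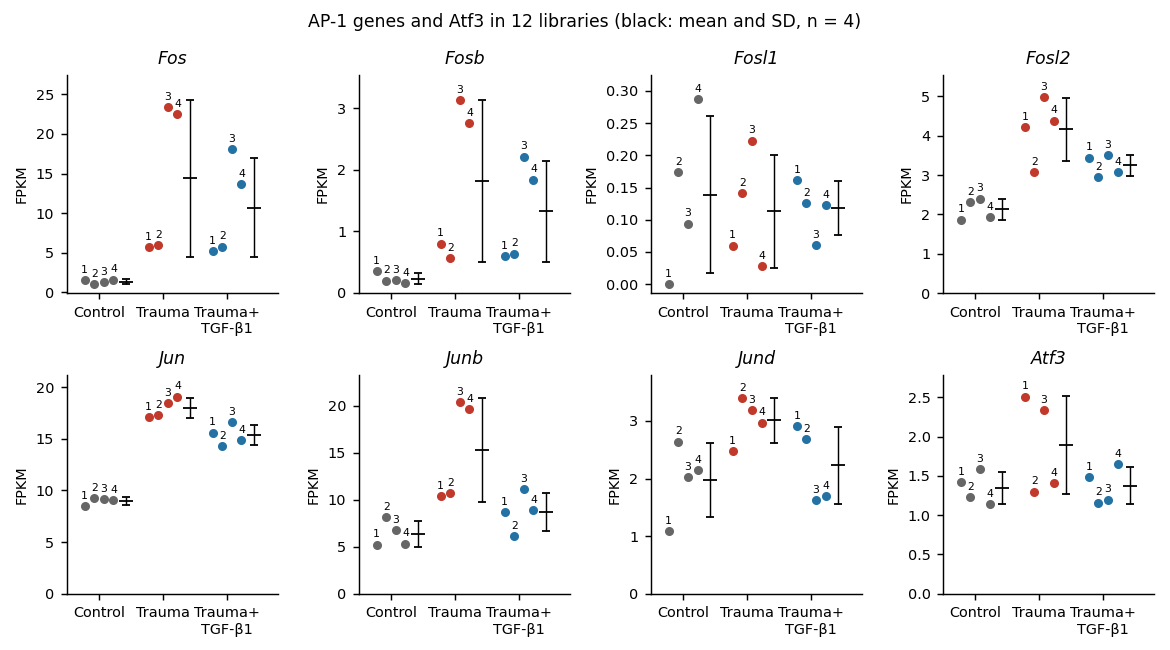
FPKM (y axis, one scale per panel) of the 8 genes in the 4 libraries of Control, Trauma and Trauma+TGF-β1, each point marked with its library number; black bars are the mean and SD. Fos and Fosb were higher in libraries 3 and 4 than in libraries 1 and 2 of both scratched groups, whereas the 4 Jun libraries of each group lay close together.

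Fos (ENSMUSG00000021250, chromosome 12, 85473890 to 85477273 of GRCm38, plus strand), the best known activity marker of neurons, measured 1.55, 1.05, 1.30 and 1.63 FPKM in Control libraries 1 to 4. In Trauma it measured 5.71, 5.99, 23.4 and 22.5 FPKM. In Trauma+TGF-β1 it measured 5.25, 5.78, 18.1 and 13.7 FPKM. Every scratched library was above every Control library, and in both scratched groups libraries 3 and 4 were well above libraries 1 and 2. The counts behind these values were 42 to 59 reads in Control, 221 to 975 in Trauma and 188 to 690 with TGF-β1 added. The fitted log2 fold change was 3.0 (standard error 0.52) for Trauma against Control and 2.69 (0.52) for Trauma+TGF-β1 against Control. Between the scratched groups it was -0.31 (0.52), a difference smaller than its standard error, and it was 0.02 without Trauma library 3 and 0.0035 without Trauma library 4.

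Fosb (ENSMUSG00000003545, chromosome 7, 19302696 to 19310051, minus strand), a close relative of Fos whose truncated product builds up with repeated neuronal activity, had the same arrangement of libraries at a lower level. Control libraries 1 to 4 measured 0.354, 0.198, 0.204 and 0.156 FPKM. Trauma libraries measured 0.798, 0.569, 3.13 and 2.76 FPKM, and Trauma+TGF-β1 libraries 0.599, 0.636, 2.21 and 1.84 FPKM. Again no scratched library fell into the Control range, and libraries 3 and 4 were the higher ones. The log2 fold changes were 2.26 (standard error 0.55) for Trauma against Control, 1.94 (0.55) for Trauma+TGF-β1 against Control and -0.32 (0.55) between the scratched groups, where it was 0.04 without Trauma library 3. With 15 to 34 reads per Control library, the fold of Fosb depended on the pseudocount: with 1 FPKM added in place of 0.1 FPKM, the first was 1.07 and Fosb was not called.

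Fosl2 (ENSMUSG00000029135, chromosome 5, 32135801 to 32157842, plus strand) encodes Fra-2, a slower member of the family. It measured 1.87, 2.31, 2.40 and 1.93 FPKM in Control, 4.21, 3.07, 4.98 and 4.38 FPKM in Trauma, and 3.44, 2.95, 3.50 and 3.08 FPKM in Trauma+TGF-β1. Both scratched groups were above Control without overlap, by a log2 fold change of 0.92 (standard error 0.14) for Trauma and 0.59 (0.14) with TGF-β1, and the scratched groups overlapped each other, at -0.33 (0.14). Trauma libraries 3 and 4 were the highest of their group here too, but library 1 was close to them, and in Trauma+TGF-β1 the highest were libraries 1 and 3.

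Fosl1 (ENSMUSG00000024912, chromosome 19, 5447547 to 5455946, plus strand), which encodes Fra-1, was barely detected. It had 0 to 9 reads in Control, 1 to 8 in Trauma and 2 to 5 with TGF-β1 added libraries, or 0.139 ± 0.122, 0.113 ± 0.0874 and 0.118 ± 0.0418 FPKM, and it stayed under the filter. No difference was detectable at this depth. Its exons share 1163 bases with those of Ccdc85b on the opposite strand, which measured 15.2 ± 2.08, 15.4 ± 1.53 and 10.2 ± 1.17 FPKM, so without knowing whether strand was used in counting its few reads cannot be assigned with certainty.

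Jun (ENSMUSG00000052684, chromosome 4, 95049034 to 95052222, minus strand), the partner of the Fos proteins and a target of JNK signalling, had the tightest libraries of the group. It measured 8.46, 9.29, 9.19 and 9.09 FPKM in Control, 17.1, 17.3, 18.5 and 19.1 FPKM in Trauma, and 15.6, 14.3, 16.6 and 14.9 FPKM in Trauma+TGF-β1. No libraries of any pair of groups overlapped, and Trauma+TGF-β1 lay between the others. Trauma libraries 3 and 4 were above libraries 1 and 2 by a small margin. The log2 fold change was 0.99 (standard error 0.05) for Trauma against Control, 0.76 (0.05) for Trauma+TGF-β1 against Control and -0.22 (0.05) between the scratched groups. The last value was -0.11 after correction for GC content, where Jun no longer passed the threshold, and it also missed the threshold without Trauma library 3 (-0.21), Trauma library 4 (-0.20), Trauma+TGF-β1 library 2 (-0.19) or Trauma+TGF-β1 library 4 (-0.21).

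Junb (ENSMUSG00000052837, chromosome 8, 84974484 to 84978718, minus strand), an early response gene that can also oppose Jun, measured 5.23, 8.15, 6.77 and 5.33 FPKM in Control. It measured 10.4, 10.7, 20.4 and 19.7 FPKM in Trauma and 8.70, 6.10, 11.1 and 8.88 FPKM in Trauma+TGF-β1. In Trauma all libraries were above Control and libraries 3 and 4 were again the higher ones. In Trauma+TGF-β1 libraries 3 and 4 were also the highest, library 4 only just, and the group overlapped Control and Trauma. The log2 fold change was 1.20 (standard error 0.25) for Trauma against Control, -0.77 (0.25) between the scratched groups and 0.43 (0.25) for Trauma+TGF-β1 against Control. The first missed the threshold without Trauma library 4, where it was 1.06. The second was the largest fitted decrease among the members tested and did not pass the threshold, except with the count-based voom fit on whole reads, which also called Fosl2. Junb shares 173 exon bases with the abundant Prdx2 on the opposite strand, which measured 92.3 ± 2.52, 93.3 ± 5.29 and 86.5 ± 3.45 FPKM.

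Jund (ENSMUSG00000071076, chromosome 8, 70698949 to 70700616, plus strand), the member that most cells keep on at rest, measured 1.09, 2.64, 2.02 and 2.14 FPKM in Control, 2.48, 3.40, 3.19 and 2.97 FPKM in Trauma, and 2.91, 2.69, 1.63 and 1.69 FPKM in Trauma+TGF-β1. All groups overlapped, and in Trauma+TGF-β1 libraries 3 and 4 were the lower ones. The log2 fold changes were 0.64 for Trauma against Control, -0.45 between the scratched groups and 0.19 for Trauma+TGF-β1 against Control, each with a standard error of 0.25. The last of these was -0.06 without Control library 1.

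Atf3 (ENSMUSG00000026628, chromosome 1, 191170296 to 191218039, minus strand), widely used as a marker of injured neurons, measured 1.42, 1.23, 1.59 and 1.14 FPKM in Control, 2.51, 1.30, 2.34 and 1.41 FPKM in Trauma, and 1.49, 1.16, 1.20 and 1.65 FPKM in Trauma+TGF-β1. Trauma libraries 1 and 3 were the highest of the 12, and Trauma libraries 2 and 4 lay within the Control range. The log2 fold change was 0.42 (standard error 0.21) for Trauma against Control, -0.39 (0.21) between the scratched groups and 0.03 (0.21) for Trauma+TGF-β1 against Control. None passed the threshold, on 38 to 89 reads per library, and the sign of the last turned with quantile normalization and with several single libraries left out.

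**Figure D2:**
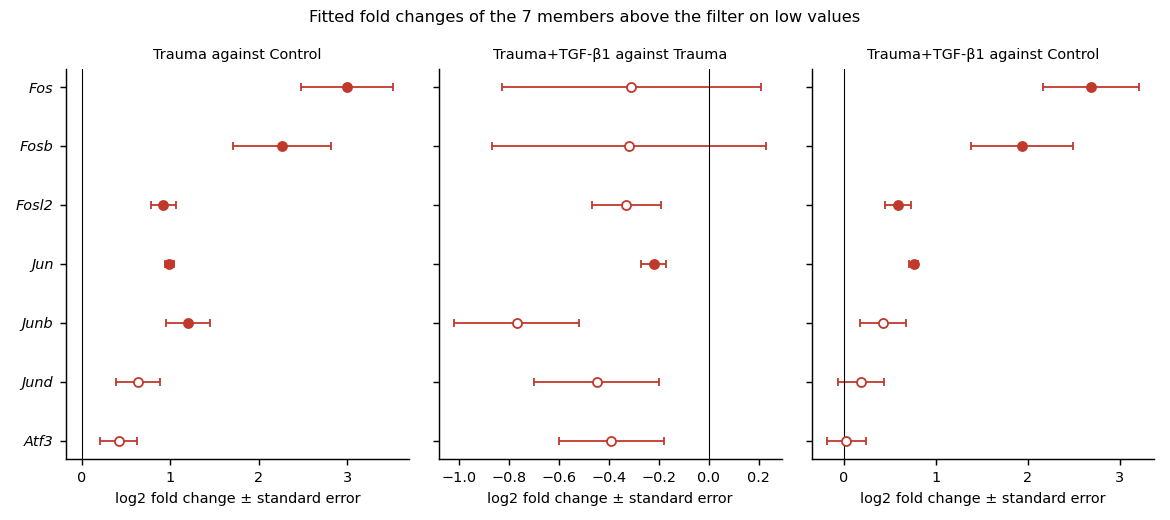
Fitted log2 fold changes (x axis) with their standard errors for the 7 members that passed the filter, in the 3 comparisons; filled points passed the threshold across all tested genes. All 7 lay above 0 in Trauma against Control and below 0 between the scratched groups, where the bars of Fos and Fosb crossed 0.

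Counted together, 7 of the 8 members passed the filter of a mean of 0.5 FPKM and entered the limma fit over 15016 genes. Fos, Fosb, Fosl2, Jun and Junb were called higher in Trauma than in Control (adjusted p of at most 0.05), against a background of 3.30% of all tested genes called higher and 2.70% called lower. The same 5 genes had no overlap between libraries, against 6.25% of tested genes that were higher and 6.69% that were lower without overlap. Their selection used this contrast, so the counts are printed without a reading. Without Trauma library 4, 3 of the 5 kept their call, and Fosb also lost its call without Trauma library 3, without Control library 2, 3 or 4, with a pseudocount of 1, with no filter and with only the 2 groups compared.

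Between the scratched groups, all 7 fitted values were below 0, with a median of -0.33 beside a median of 0.0025 over all tested genes. Jun was the only member called lower and none was called higher, against a background of 7.71% lower and 4.40% higher, and Jun was the only member without overlap, against 12.0% lower and 10.2% higher. Jun was singled out for its change in this contrast, so its call and lack of overlap are printed without a reading. In Trauma+TGF-β1 against Control, Fos, Fosb, Fosl2 and Jun were called higher, against 6.14% of tested genes called higher and 10.4% called lower, and the same 4 did not overlap, against 7.94% higher and 10.6% lower. Fosb lost this call with a pseudocount of 1, with no filter, and without Control library 2, 3 or 4 or Trauma+TGF-β1 library 3 or 4. The 3 comparisons share libraries and are not independent of each other.

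GC content moved with the comparison of the scratched groups. Over 14699 tested genes with a known GC content, Spearman's rho between GC content and the log2 fold change was -0.465 between the scratched groups, -0.360 for Trauma+TGF-β1 against Control and 0.088 for Trauma against Control. The GC content of the members' transcripts lay above the median of 49.6%, from 51.9% for Fos to 67.1% for Jund. Jund had a higher GC content than 99.6% of tested genes, Junb than 98.3%, Fosb than 82.5% and Jun than 80.4%. Fosl2, Atf3 and Fos were nearer the middle, above 68.2%, 63.9% and 62.3% of tested genes. After the GC correction the log2 fold change between the scratched groups was -0.52 for Junb, -0.33 for Atf3, -0.26 for Fosl2 and Fos, -0.19 for Fosb, -0.11 for Jun and -0.08 for Jund, the last from -0.45 before it.

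The balance of the families differed between Control and scratched cultures. The Fos family summed to 3.88 ± 0.144 FPKM in Control, 20.5 ± 11.8 FPKM in Trauma and 15.4 ± 7.16 FPKM in Trauma+TGF-β1, and the Jun family to 17.4 ± 2.25, 36.3 ± 6.51 and 26.3 ± 2.60 FPKM. For each FPKM of the Fos family there were 4.48 ± 0.641 FPKM of the Jun family in Control, 2.18 ± 0.958 in Trauma and 1.98 ± 0.813 with TGF-β1 added. The lowest Control ratio, 3.92, was above the highest scratched ratio, 3.21. These are ratios of transcripts, not of proteins.

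Within the Fos family the leading transcript changed. Fosl2 made up 55.0 ± 7.07% of the Fos family FPKM in Control, 25.2 ± 12.0% in Trauma and 24.6 ± 10.8% with TGF-β1 added. Fos made up 35.6 ± 6.37%, 66.0 ± 10.8% and 66.4 ± 9.71%. Jun remained the leading transcript of its family on average, with 52.4 ± 4.80%, 50.4 ± 6.55% and 58.6 ± 2.39%, and Junb followed with 36.4 ± 3.56%, 41.1 ± 7.75% and 32.7 ± 4.87%. In Trauma libraries 3 and 4, however, Junb (20.4 and 19.7 FPKM) was above Jun (18.5 and 19.1 FPKM).

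**Figure D3:**
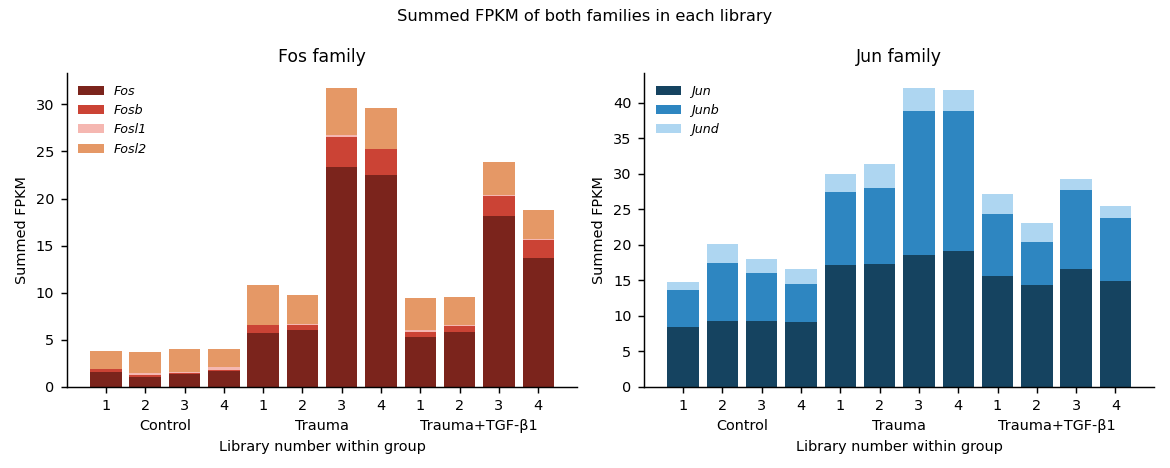
Stacked FPKM (y axis, from 0) of the Fos family (left) and the Jun family (right) in each of the 12 libraries. Fos itself accounts for the tall bars of Trauma libraries 3 and 4 (family sums of 31.8 and 29.7 FPKM), and Junb for most of the added height of the same libraries in the Jun family.

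The spread between libraries of a group set Fos and Fosb apart from Jun. The SD of Fos on the log2 scale was 0.27 in Control, 1.13 in Trauma and 0.88 with TGF-β1, larger than that of 74.9%, 96.7% and 95.1% of tested genes. For Fosb it was 0.35, 1.15 and 0.91. For Jun it was 0.06, 0.08 and 0.09, below the medians over all tested genes of 0.14, 0.11 and 0.12. Fos differed 4.10-fold between its highest and lowest Trauma library, and Jun 1.12-fold. Control libraries held 15477690 to 17381671 reads on genes, Trauma libraries 16335960 to 17339554, and those with TGF-β1 added 15052486 to 15880694. Whether depth or anything else caused the spread of Fos was not tested. No source used here names a batch.

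The genes nearest to Fos and Fosb were other early response genes. Of the tested genes with a mean of at least 1 FPKM, those whose log2 values over the 12 libraries followed Fos most closely were Dusp1 (Pearson's r = 0.985), a phosphatase that switches off MAP kinases, Nr4a1 (0.955), an orphan nuclear receptor, and Npas4 (0.948), a calcium-induced transcription factor. The same 3 genes were nearest to Fosb, with Npas4 first at 0.976. Nr4a1 measured 7.36, 5.57, 19.5 and 16.3 FPKM in Trauma libraries 1 to 4 and 5.16, 3.63, 11.1 and 9.52 FPKM in Trauma+TGF-β1, with libraries 3 and 4 the higher ones. Dusp1 measured 3.67, 3.83, 6.73 and 6.72 FPKM in Trauma, and Npas4 2.48, 2.43, 8.01 and 6.20 FPKM. The r values are descriptions over 12 libraries that share 3 groups. These 3 genes were picked for their likeness to Fos in the same libraries, so their split of libraries is no separate evidence.

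**Figure D4:**
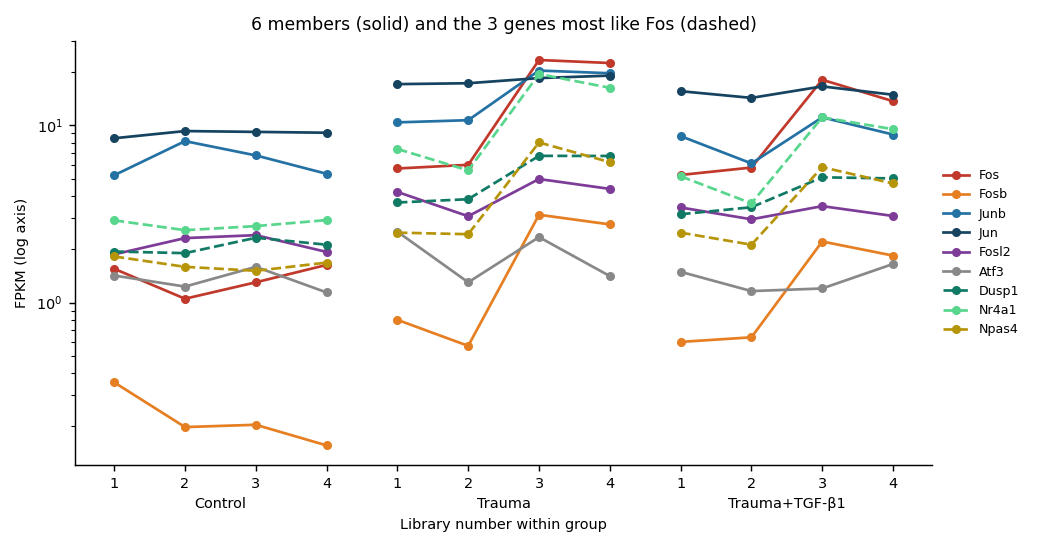
FPKM (y axis, log scale) of 6 members (solid) and of the 3 genes nearest to Fos (dashed) in the 12 libraries; lines join the libraries of a group only to guide the eye, since replicates have no order. Fos, Fosb, Dusp1, Nr4a1 and Npas4 are higher in libraries 3 and 4 of both scratched groups, and Jun is nearly level within each group.

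Jun also followed Fos (r = 0.91) and Fosb (0.83), but other genes outside the members were nearest to it. These were Dhrs1 (r = 0.984), a dehydrogenase/reductase gene, Vgf (0.980), which encodes a secreted neuropeptide precursor, and Nr4a3 (0.972). Vgf measured 3.87 ± 1.05, 23.4 ± 1.20 and 17.0 ± 2.90 FPKM in Control, Trauma and Trauma+TGF-β1, and Dhrs1 35.9 ± 2.03, 72.5 ± 6.05 and 63.6 ± 1.41 FPKM, both with the middle level in Trauma+TGF-β1 as for Jun. Fosl2 was nearest to Myo10 (0.959), Klf9 (0.910) and Gadd45g (0.907), and Junb to Suclg2 (0.937), Eif4b (0.925) and Sp8 (0.920). For Jund the nearest were Kcnk1 (0.937), Sorcs2 (0.900) and Lix1l (0.884), and for Atf3 Cmtm5 (0.844), Zfp870 (0.833) and Plekho2 (0.803). Between members, r over the 12 libraries was 0.97 for Fos and Fosb, 0.93 for Fosl2 and Jun, 0.91 for Fos and Jun, 0.80 for Jun and Junb, and 0.15 for Atf3 and Jund.

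The other bZIP genes, which supply further partners and competitors of AP-1, did not move as a block. Of 43 listed, 35 were tested, and 3 rose and 4 fell in Trauma against Control, with a median log2 fold change of 0.03, beside 3.30% and 2.70% of all tested genes. The 7 calls became 3 with no filter or with only the 2 groups compared, 4 with quantile normalization or the replicate block, and 3 to 8 with a library left out (3 without Control library 3 or 4 or Trauma library 2 or 4, and 4 without Control library 2 or Trauma library 3). The genes that rose were Cebpd, a stress-responsive C/EBP factor (1.90 ± 0.580 to 3.36 ± 0.575 FPKM, log2 fold change of 0.83 with a standard error of 0.19, limma adjusted p = 0.0268), Crem, a regulator of cyclic AMP responses (0.57, standard error 0.14, limma adjusted p = 0.0360), and Nfe2l2, the antioxidant response factor (0.50, standard error 0.10, limma adjusted p = 0.0102). Among those that fell, Mafa had the largest change (8.23 ± 1.13 to 4.82 ± 0.470 FPKM, log2 fold change of -0.75 with a standard error of 0.12, limma adjusted p = 0.00284), and the others were Atf4, Maf and Tef. Batf, a Jun partner of immune cells, had a mean of 0 FPKM in Control and 0.0300 FPKM in Trauma and was not tested.

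With TGF-β1 after the scratch, 2 of the other bZIP genes rose and 6 fell relative to Trauma. Of all tested genes, 4.40% were called higher and 7.71% lower there. The bZIP genes called numbered 2 to 10 with a library left out. Creb3l2, a membrane-bound factor of the secretory pathway, rose by 0.88 on the log2 scale to 1.61 ± 0.134 FPKM (standard error 0.16, limma adjusted p = 0.00849). Dbp, a clock output gene, fell by 0.55 on the log2 scale (limma adjusted p = 0.0186), and Atf5 and Crebzf fell by 0.42 and 0.34 (limma adjusted p = 0.0126 and 0.0273). The calls of Crebzf and Dbp were lost in 8 and 5 of 26 alternative fits. Jdp2, a repressor that pairs with Jun, went from 12.2 ± 0.778 to 9.65 ± 1.16 FPKM (-0.34, limma adjusted p = 0.0193). Against Control, 6 rose and 9 fell in Trauma+TGF-β1, beside 6.14% and 10.4% of all tested genes. Among the bZIP genes were Creb3l2 (1.24), Cebpd (0.79) and Nfe2l2 (0.74), which rose, and Mafa (-1.0), which fell, all log2 fold changes with limma adjusted p of at most 0.05.

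**Figure D5:**
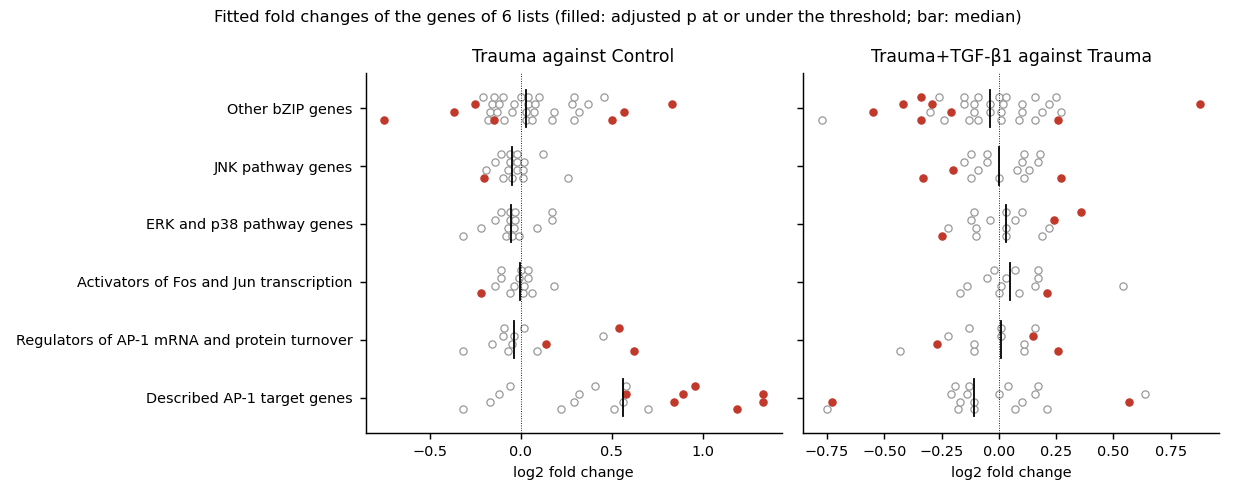
Log2 fold changes (x axis) of the tested genes of 6 lists in Trauma against Control (left) and between the scratched groups (right); filled points passed the threshold and black bars are list medians. The described AP-1 target genes have a median of 0.56 on the left and -0.11 on the right, and the medians of the other lists lie between -0.054 and 0.054 on both sides.

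The kinases that act on AP-1 were examined at the level of their transcripts. Of 17 genes of the JNK pathway, which phosphorylates Jun, none rose in Trauma against Control and Map2k4, a kinase directly above JNK, fell (54.9 ± 3.46 to 47.8 ± 2.43 FPKM, log2 fold change of -0.20 with a standard error of 0.05, limma adjusted p = 0.0353). This call was lost with no filter, quantile normalization, only the 2 groups compared or no variance trend, and without Control library 1, 2 or 4, Trauma library 2, 3 or 4, or Trauma+TGF-β1 library 1 or 4, while the log2 fold change stayed between -0.23 and -0.16 with a library left out. Between the scratched groups, Map2k4 rose by 0.27 (limma adjusted p = 0.00958), and Map3k10 and the scaffold gene Mapk8ip1 fell by 0.33 and 0.20 (limma adjusted p = 0.0159 and 0.0232). These 3 calls of 17 stand beside 4.40% of all tested genes called higher and 7.71% called lower, 9 of the 17 had an unadjusted p under 0.05, voom called 5 and the GC correction left 1. With a library left out they ranged from 1 (without Trauma+TGF-β1 library 2) to 6 (without Control library 1). Against Control, Map3k13 rose and Map3k10, Mapk8ip1 and Mapk8ip2 fell. The JNK genes Mapk8 (24.3 ± 2.57, 22.4 ± 1.24 and 25.4 ± 1.25 FPKM) and Mapk10 (20.4 ± 0.685, 20.0 ± 0.400 and 21.5 ± 0.451 FPKM) passed in no comparison. Of 16 tested ERK and p38 pathway genes, 0 passed the limma threshold in Trauma against Control, where 3 had an unadjusted p under 0.05 and voom called 1, and between the scratched groups Rps6ka3 and Braf rose by 0.36 and 0.24 and Map2k2 fell by 0.25 (limma adjusted p = 0.0183, 0.0140 and 0.0438). These 3 calls became 0 with the GC correction, 4 with voom or without Control library 1, and 1 without Trauma library 2 or Trauma+TGF-β1 library 2 or 4. Against Control 2 rose and 2 fell, beside 6.14% of all tested genes called higher and 10.4% called lower.

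Transcription factors and coactivators that act on the transcription of Fos and Jun were examined likewise, without regard to the direction in which each acts. Of 14 tested, 1 passed in each comparison by limma: Mef2a fell in Trauma against Control (16.0 ± 0.870 to 13.7 ± 0.316 FPKM, log2 fold change -0.22, limma adjusted p = 0.0173) and rose between the scratched groups (0.21, limma adjusted p = 0.0183; 0.09 and not called after the GC correction). In the latter comparison 7 of the 14 had an unadjusted p under 0.05 and voom called 6, and limma called none without Trauma library 4 or Trauma+TGF-β1 library 2 and 4 without Control library 1. The fall of Mef2a against Control was also lost without Trauma library 4. Elk3 rose in Trauma+TGF-β1 against Control (0.72, limma adjusted p = 0.0310). Of all tested genes, 2.70% were called lower in Trauma against Control, 4.40% higher between the scratched groups and 6.14% higher in Trauma+TGF-β1 against Control. Srf measured 17.7 ± 1.12, 17.3 ± 1.55 and 15.3 ± 0.874 FPKM, Elk1 8.22 ± 0.435, 8.60 ± 0.633 and 8.31 ± 0.646 FPKM, and Creb1, counted with the other bZIP genes, 4.44 ± 0.143, 4.14 ± 0.358 and 4.42 ± 0.417 FPKM. None of these 3 passed the limma threshold in any comparison.

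Of 13 tested regulators of AP-1 mRNA and protein turnover, 3 rose and none fell in Trauma against Control. Of all tested genes, 3.30% were called higher and 2.70% lower there. The count of regulators called was 1 with no filter and 1 without Control library 3 or 4 or Trauma library 2, 3 or 4. Zfp36l1 and Zfp36l2, which bind AU-rich elements and speed the decay of early response mRNAs, rose by 0.62 and 0.54 on the log2 scale (standard error 0.15 and 0.11, limma adjusted p = 0.0307 and 0.0134). Fbxw7, part of a ubiquitin ligase for Jun, rose by 0.14 (limma adjusted p = 0.0431). With TGF-β1 added to the scratch, Itch, another ligase for Jun, rose by 0.26, Gsk3b rose by 0.15 and Gsk3a fell by 0.27 (limma adjusted p = 0.0221, 0.0406 and 0.0439). Voom called 5 of these regulators there, and limma none without Trauma library 2 or 4 or Trauma+TGF-β1 library 2 and 5 without Control library 1. Against Control, Zfp36l2 rose and Gsk3a, Khsrp and Hnrnpd fell. Of all tested genes, 4.40% were called higher and 7.71% lower between the scratched groups, and 6.14% and 10.4% in Trauma+TGF-β1 against Control.

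Of 32 genes described elsewhere as AP-1 targets, 19 were expressed enough to be tested, and 7 of them rose and none fell in Trauma against Control, beside 3.30% of all tested genes called higher. Their median log2 fold change was 0.56, beside -0.012 over all tested genes. Vim, an intermediate filament gene of astrocytes and young neurons, went from 24.6 ± 1.36 to 62.0 ± 3.73 FPKM (log2 fold change of 1.33 with a standard error of 0.06, limma adjusted p = 6.8e-07). Timp1, an inhibitor of matrix metalloproteases, went from 0.570 ± 0.279 to 1.58 ± 0.726 FPKM (1.33, standard error 0.35, limma adjusted p = 0.0468), a call lost in 19 of 26 alternative fits. The neuropeptide gene Penk (1.19, limma adjusted p = 0.00153) and the neurotrophin gene Bdnf (0.96, limma adjusted p = 0.00223) rose as well, and the others were Ccnd1, Npy and Adcyap1. Vim and Timp1 are also expressed by astrocytes, whose summed markers were higher in Trauma, and the part of those cells was not tested. The list was put together with earlier results of these libraries known, so its count is no independent evidence of a direction.

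Between the scratched groups, 1 target rose and 1 fell, beside 4.40% and 7.71% of all tested genes. Ccnd1, which encodes cyclin D1, fell from 8.11 ± 0.783 FPKM in Trauma to 4.83 ± 0.274 FPKM in Trauma+TGF-β1 (log2 fold change of -0.73 with a standard error of 0.10, limma adjusted p = 0.00373), beside a Control level of 4.50 ± 0.715 FPKM. Hbegf, an EGF receptor ligand, rose from 3.31 ± 0.121 to 4.98 ± 0.554 FPKM (0.57, standard error 0.09, limma adjusted p = 0.00549). Against Control, 10 targets rose and 2 fell in Trauma+TGF-β1, with a median of 0.47, beside 6.14% and 10.4% of all tested genes called. The targets were led by Timp1 (1.55), Vim (1.14), Cd44 (1.05) and Bdnf (1.03), all log2 fold changes with limma adjusted p of at most 0.05. The metalloprotease gene Mmp9 measured 0.548 ± 0.0696, 0.725 ± 0.208 and 0.637 ± 0.110 FPKM and passed in no comparison, and Mmp3, Il6, Gal and Sprr1a were below the filter.

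Genes with the classical AP-1 element TGACTCA in the 250 bases before their start were counted beside those without it, leaving out the members. In Trauma against Control, 24 of 365 such genes rose (6.58%) and 10 fell (2.74%), beside 3.68% and 2.87% of 9616 genes without it. Between the scratched groups, 12 rose (3.29%) and 31 fell (8.49%), beside 4.81% and 8.94%. Against Control with TGF-β1, 35 rose (9.59%) and 38 fell (10.4%), beside 6.49% and 12.1%. The median log2 fold change of the genes with the element was 0.00091, -0.0054 and -0.0062. The difference between the 2 sets was not tested.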

How the data were processed

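RNA of 12 libraries was measured by poly(A) RNA sequencing (paired ends). According to the methods, the authors aligned reads with Hisat2 to the mouse genome, counted them with featureCounts and deposited FPKM per gene; the submitters' processing notes name CASAVA, HISAT2 2.0.5 and mm10. The gene coordinates in the table are those of GENCODE for GRCm38, and whether strand was used in counting is not given in the sources used here. The deposited FPKM were already scaled between libraries: median-of-ratios factors were 1.0062 in all of them. FPKM times gene length gave whole reads for 100.0% of genes (tolerance 0.01). The methods describe fewer samples than the 12 libraries of the table, and all 12 were used, 4 per group.

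FPKM were divided by these factors, 0.1 was added, log2 was taken, and genes with a mean of at least 0.5 FPKM (15016) were fitted with limma 3.58.1 (trend) in R 4.3.3 in one fit of all libraries, with Benjamini-Hochberg adjustment per comparison and a threshold of 0.05. Fold changes are on the log2(FPKM + 0.1) scale, which understates those of low genes. Rows with no gene name (480) kept their identifiers. The deposited table holds no depth, so reads per library are sums of the recovered reads. The fit was tested on simulated data. Alternatives covered the pseudocount, the filter, scaling, the variance model, GC content, gene length, a replicate block, voom on recovered reads and leaving out each library.

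The members and the gene lists were chosen with earlier results of these data known. All 8 members were named, up to 4 genes per list and comparison with the largest change among those past the threshold and at 1 FPKM or more in the higher group, and the 3 genes most like each member; Atf4, Maf, Tef, Jdp2, Batf, Mapk8, Mapk10, Srf, Elk1, Creb1, Ccnd1, Npy, Adcyap1, Mmp9, Mmp3, Il6, Gal and Sprr1a were named after their values were seen. The TATAAA motif, the short TGACG motif and the CCAAT motif were added then too. Promoter sequences are from RefSeq (GRCm38.p6), which matched 7 of the 8 members. Proteins were not analysed here.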

Additional observations from a re-analysis of the deposited data

How the results depend on the processing

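Of 546 values of members' log2 fold changes under 14 alternatives and with each of 12 libraries left out, 512 kept their direction and their side of the threshold, 22 lost and 3 gained the call, and 9 reversed. The reversed values were Fos between the scratched groups without Trauma library 3 (0.02) or 4 (0.0035), Fosb without Trauma library 3 (0.04), Jund in Trauma+TGF-β1 against Control without Control library 1 (-0.06), and Atf3 in the same comparison with quantile normalization (-0.04) and without Control library 2 (-0.01) or 4 (-0.04) or Trauma+TGF-β1 library 1 (-0.01) or 4 (-0.06). With a library left out, these 4 ranged from -0.65 to 0.02, -0.72 to 0.04, -0.06 to 0.34 and -0.06 to 0.11. Of 1298 values of list genes, 1061 stayed the same, 237 lost the call and none reversed. Calls lost in over 13 of 26 fits were those of Timp1 (19) and Fbxw7 (15) in Trauma against Control, Gsk3a and Map2k2 (16 each) between the scratched groups, and Mapk3 (18) in Trauma+TGF-β1 against Control.

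In Trauma against Control, 901 genes were called, 575 with no filter, 518 with only the 2 groups compared, 1366 with the GC correction and the replicate block, and 484 to 863 with a library left out. List genes called were 19, 11 with no filter, 12 with only the 2 groups compared and 10 to 20 with a library left out, and members called 3 to 5. In Trauma+TGF-β1 against Trauma, 1819 genes were called, 987 with no filter, 818 with the GC correction, 740 with the GC correction and the block, and 653 to 2547 with a library left out. Members called there were 1 in the fit as reported, 0 with the GC correction with or without the block, 3 with voom and 0 to 2 with a library left out, and list genes 20, 13 with the GC correction, 9 with the GC correction and the block, 34 with voom and 6 to 33 with a library left out. In Trauma+TGF-β1 against Control, 2487 genes were called, 1601 with only the 2 groups compared and 1466 to 3392 with a library left out, with 26 to 42 list genes and 3 to 4 members. Genes with TGACTCA called higher ranged from 19 to 27, 2 to 17 and 24 to 51 in the 3 comparisons with a library left out; between the scratched groups they were 12, 6 with no filter, 24 with quantile normalization, 7 without a variance trend, 7 with the replicate block, 5 with the gene length correction, 4 with the GC correction with or without the block and 23 with voom. The cause of these shifts was not tested.

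Quantile normalization changed the split of calls to 1125 higher and 927 lower (661 and 1158 as reported) between the scratched groups and to 1134 and 918 (922 and 1565) in Trauma+TGF-β1 against Control, and the GC correction to 487 and 761 (496 and 405) in Trauma against Control. Over all tested genes, the deviations of same-numbered libraries were close to uncorrelated (12 correlations from -0.009 to 0.076), and the numbers were not taken as pairs. Correlations over all genes cannot decide whether a few genes share an effect of library number. Fos and Fosb were higher in libraries 3 and 4 of both scratched groups, and a shared effect in them was not tested. Their standard errors pool this split with the smaller spread of Control, where the log2 SD was 0.27 for Fos and 0.35 for Fosb. The replicate block gave 786, 1517 and 2267 calls and 5, 1 and 4 members. Depth limited Fosl1, with 0 to 9 reads per library, and Fosb in Control, with 15 to 34.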
